A study of Homo sapiens with 6 samples.

Results

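RBM39, RALY, DHX9 and 7 heterogeneous nuclear ribonucleoprotein (hnRNP) genes encode proteins that bind RNA in the nucleus, and their mRNAs were followed here after knockdown of the long noncoding RNA LINC01977. The 10 genes were chosen by name, with earlier results of these data known. RBM39 was taken because the study examined its protein as a partner of LINC01977. RALY and DHX9 were taken because the study measured them beside it as RNA-binding protein controls. HNRNPC, HNRNPL, HNRNPD, HNRNPA2B1, HNRNPH1, HNRNPF and HNRNPAB were taken as hnRNP genes. All 10 were among the 29153 genes listed, and all 10 were among the 13452 genes with a mean FPKM (fragments scaled to exon length and to the library's total) of at least 0.5 that were tested.

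The cells were HepG2, a liver cancer line of human origin in long-standing use, and their RNA was sequenced 72 h after infection with lentivirus that carried a short hairpin RNA. The control group carried a nontargeting hairpin (sh-NC, 3 libraries) and the knockdown group a hairpin against LINC01977 (sh-LINC01977, labelled sh3, 3 libraries). Both groups were infected with lentivirus, and puromycin selection is described for the stable lines. A single hairpin was sequenced, in a single cell line, so an effect of LINC01977 loss and an effect particular to this hairpin cannot be told apart. No source used here states that the 3 libraries of a group came from separate cultures, so p-values measure the spread between these libraries, which may be technical. Total counts were between 49929024 and 60441515, of which the 10 genes took between 0.374% and 0.397%. LINC01977 itself had 4, 0 and 16 counts in sh-NC and 0, 0 and 4 counts in sh-LINC01977 libraries, so its reduction was not detectable at this depth and the groups rest on the labels. NOTCH2, a receptor that the study examined downstream, had 2190 to 2459 counts in sh-NC and 1698 to 1959 in sh-LINC01977 libraries. These are raw counts, not scaled for depth, and no fold change of NOTCH2 is given here.

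RBM39 is a nuclear splicing factor with RNA recognition motifs that works beside the U2AF proteins at the 3′ splice site and also binds transcription factors as a coactivator. The hnRNP proteins coat nascent transcripts, and by binding short sequences in introns, exons and mRNA tails they set which exons are kept, which poly(A) site is used and how long an mRNA lasts. Many of these genes control their own level through transcripts that keep an intron or carry a premature stop, which are then held in the nucleus or destroyed by nonsense-mediated decay (NMD).

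The oligonucleotides that define the groups and that address RBM39 are given first, because they show where LINC01977 and RBM39 RNA were targeted. In the hairpins, capitals mark the bases of the target strand that pair with positions 2 to 8 of the guide strand (the seed). In the siRNA they mark the 3′ overhang, and the primers carry none. The supplement of the study lists 1 hairpin for LINC01977 without a number, and whether it is the hairpin labelled sh3 is not stated in the sources used here.
sh-LINC01977 hairpin: gcattcgtcttccCTGGATTt
sh-NC hairpin: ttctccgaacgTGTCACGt
RBM39 siRNA: ggaacaacuuaauggauuuTT
RBM39 forward primer: agatggacaactgcctcattac
RBM39 reverse primer: gcctcccagtgttcacatatac

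The sh-LINC01977 target matched 1 transcript of GENCODE 29, in exon 3 of LINC01977 (hg38, chr17:79826182-79826202, plus strand), and the sh-NC target matched 0. Neither hairpin target has a full-length match in an mRNA of the 10 genes. The 7-base seed site of the LINC01977 hairpin, CTGGATT, occurred in the coding transcripts of RALY, DHX9, HNRNPC and HNRNPF, that is in 4 of the 10 genes, and in 31.0% of 11071 tested coding genes. The seed site of the control hairpin, TGTCACG, occurred in HNRNPF alone among the 10, and in 7.92% of tested coding genes. A seed match is a description of the sequence and not a site shown to be used.

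The RBM39 siRNA and primers were not used to make these libraries. The siRNA target lay in exon 11 of the coding transcript ENST00000361162.10 (hg38, chr20:35714339-35714357, minus strand, coding sequence) and was present in 16 of the 45 annotated RBM39 transcripts, 4 of them coding. Both RBM39 primers matched 1 transcript, ENST00000639702.1, which is annotated as a retained-intron transcript. Their amplicon of 258 nt (hg38, chr20:35701849-35702106) lay in its exon 18, and its nearest edge was 1503 nt beyond the 3′ end of the annotated coding transcripts. No coding transcript of RBM39 in that annotation has an exon there. The amplicon thus covers only a part of the RNAs in the gene-level values below, whose gene range includes that exon.

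Of the 10 genes, 1 rose and 1 fell after LINC01977 knockdown. HNRNPAB rose by 41.8% and RALY fell by 25.6%, while RBM39 and the 7 other genes did not pass the test. A gene was called at an adjusted p under 0.05, where p came from the quasi-likelihood test of edgeR and was adjusted by Benjamini-Hochberg over all tested genes. At that threshold 15.6% of all tested genes were called, 7.29% higher and 8.29% lower, so 1 of 10 in each direction is near the background. With counts scaled to library totals instead of TMM, 11.2% of tested genes were called higher and 5.87% lower, and among the 10 genes 2 were higher and 1 lower. At the thresholds that the study's methods name, a fold change of 2 with P of 0.05, 0 of the 10 genes and 2.43% of tested genes were called, and 3 of the 10 had an unadjusted p under 0.05 against 30.2% of tested genes. The median log2 fold change was -0.022 over the 10 genes and -0.001 over all tested genes. The values of the groups did not overlap in 4 of the 10 genes, 2 higher and 2 lower, against 37.1% of tested genes.

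The liver cell markers of HepG2 also moved between the groups. All 8 listed markers were expressed, with a summed level of 4437 to 4806 FPKM in sh-NC and 3123 to 3190 FPKM in sh-LINC01977 libraries, and 6 of the 8, among them ALB (albumin) and FGB (fibrinogen beta chain), were lower. Of all tested genes 8.29% were called lower. Of 11 markers of other cells, 9 were listed, 7 of them under 1 FPKM in mean, and PTPRC of leukocytes was between 0 and 0.0065 FPKM. Their sum was 160 to 178 FPKM in sh-NC and 252 to 254 FPKM in sh-LINC01977 libraries. Most of it was KRT19 (141.9 to 235.5 FPKM over the 6 libraries), which is also expressed by liver cancer cells. ACTA2 was at 15.3 to 18.2 FPKM and was not called (log2 fold change -0.076, edgeR adjusted p = 0.569). All libraries came from 1 cultured line, and in bulk RNA a change in all of its cells and a change in some of them cannot be told apart. The part of these shifts in the values of HNRNPAB and RALY was not tested.

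**Figure D1:**
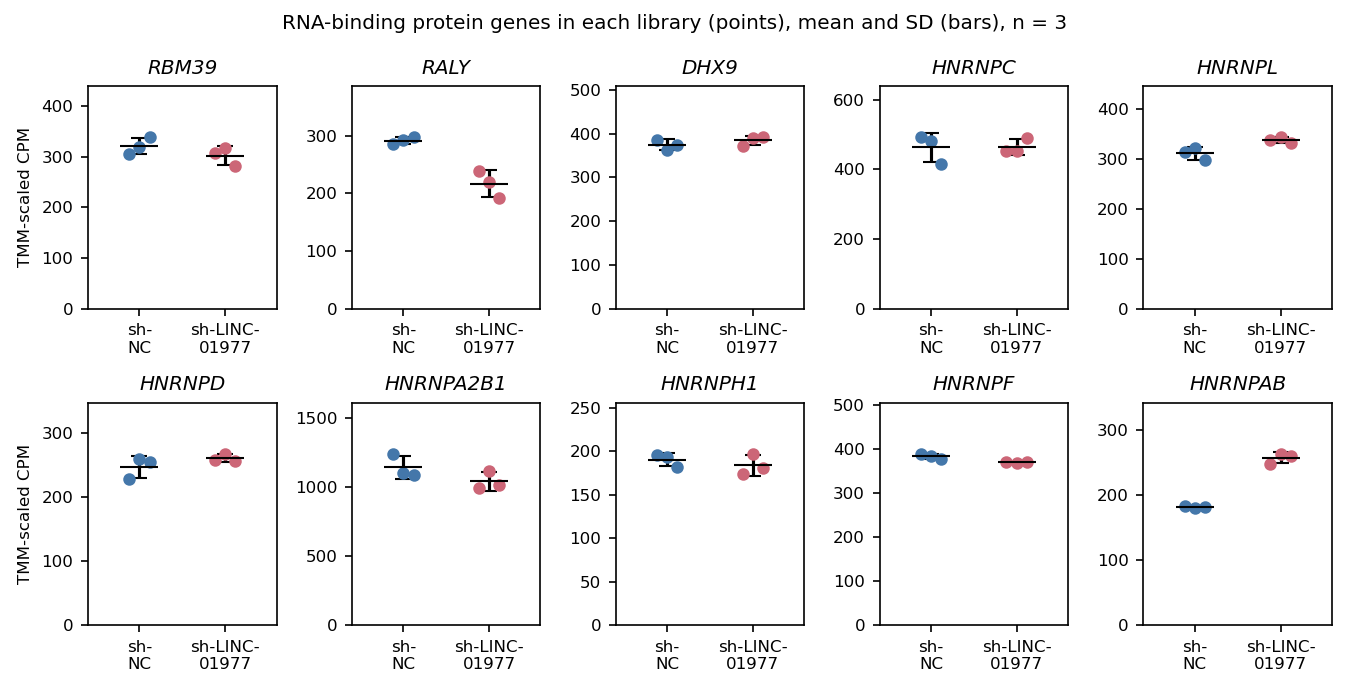
Level of each of the 10 genes in every library, as TMM-scaled CPM on axes that start at 0, with points for libraries, a long bar for the group mean and short bars for the SD (n = 3 in each group). HNRNPAB lies between 180 and 184 CPM in sh-NC and between 248 and 264 in sh-LINC01977, and RALY lies between 286 and 297 in sh-NC and between 192 and 239 in sh-LINC01977.

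RBM39 (ENSG00000131051, hg38, chr20:35701347-35742312, minus strand) was at 306, 320 and 338 CPM in the sh-NC libraries and at 308, 318 and 281 CPM in the sh-LINC01977 libraries, where CPM are counts scaled to the TMM-corrected total of the tested genes. A pair of the knockdown libraries lay inside the range of the controls and the other lay below it. The means were 321.5 ± 16.1 CPM in sh-NC and 302.2 ± 19.2 CPM in sh-LINC01977 (SD, n = 3). The log2 fold change was -0.089 (standard error 0.061) with a 95% interval of -0.23 to 0.054 (edgeR, adjusted p = 0.371). A change of RBM39 mRNA was thus not detectable, and within the interval a fall to the lower bound or a small rise remains possible. The groups overlapped.

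RALY (ENSG00000125970, chr20:33993646-34108308, plus strand) encodes a close relative of the hnRNP C proteins and lies 1593 kb from RBM39 on chromosome 20. Its level was 286, 292 and 297 CPM in the sh-NC libraries and 239, 220 and 192 CPM in the sh-LINC01977 libraries. Each knockdown library was below each control library, and the knockdown libraries were spread more widely, with means of 291.4 ± 5.83 and 216.9 ± 23.5 CPM (SD, n = 3). The log2 fold change was -0.43 (standard error 0.078) with a 95% interval of -0.61 to -0.24 (edgeR, adjusted p = 0.0117). The exact two-sided permutation test gave p = 0.1, which is the smallest that 3 libraries against 3 allow.

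RALY overlaps EIF2S2, a subunit of translation initiation factor eIF2, on the opposite strand. EIF2S2 had a mean count equal to 168% of that of RALY, and whether the counting used strand is not stated in the sources used here. The log2 fold change of EIF2S2 was -0.016 (edgeR, adjusted p = 0.842). The antisense gene RALY-AS1 held 1.04% as many counts as RALY and had a log2 fold change of 0.85 (edgeR, adjusted p = 0.0715). Where strand is not used, reads from RALY and from these genes in the shared stretch cannot be told apart.

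DHX9 (ENSG00000135829, chr1:182839369-182887751, plus strand), an RNA helicase that unwinds double-stranded RNA and DNA-RNA hybrids, was at 387, 362 and 375 CPM in sh-NC and at 372, 390 and 392 CPM in sh-LINC01977 libraries. The groups overlapped, with a log2 fold change of 0.037 and a 95% interval of -0.064 to 0.14 (edgeR, adjusted p = 0.607).

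HNRNPAB (ENSG00000197451, chr5:178204507-178211163, plus strand) encodes an hnRNP of the A/B type whose closest relatives are hnRNP D and hnRNP D-like. Its level was 184, 180 and 182 CPM in the sh-NC libraries and 248, 264 and 261 CPM in the sh-LINC01977 libraries. The groups were far apart compared with their spread, with means of 181.7 ± 2.12 and 257.6 ± 8.20 CPM (SD, n = 3). The log2 fold change was 0.50 (standard error 0.041) with a 95% interval of 0.41 to 0.60 (edgeR, adjusted p = 0.000733), and HNRNPAB ranked 87 among all tested genes by p. PHYKPL, which overlaps its 3′ end on the opposite strand, held 7.10% as many counts and had a log2 fold change of -0.18 (edgeR, adjusted p = 0.341).

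HNRNPL (ENSG00000104824, chr19:38836388-38852347, minus strand), which binds CA repeats and regulates exon choice, was at 314, 322 and 297 CPM in sh-NC and at 337, 343 and 332 CPM in sh-LINC01977 libraries. Every knockdown library was above every control library, but the difference was small. Its log2 fold change of 0.12, with a 95% interval of 0.014 to 0.22, did not pass the threshold (edgeR, adjusted p = 0.122). HNRNPL passed it when counts were scaled to library totals (log2 fold change 0.18, adjusted p = 0.0255) and in limma on log2(FPKM + 0.1) (0.18, adjusted p = 0.0427). Both settings leave out the TMM factors, and they called 11.2% and 9.43% of all tested genes higher, against 7.29% with TMM. In DESeq2 HNRNPL did not pass (0.12, adjusted p = 0.163).

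HNRNPF (ENSG00000169813, chr10:43385617-43409166, minus strand), which binds G-rich runs near splice and poly(A) sites together with hnRNP H, varied least in the knockdown group. It was at 389, 384 and 377 CPM in sh-NC and at 371, 369 and 370 CPM in sh-LINC01977 libraries. The groups did not overlap, yet the log2 fold change was -0.050 with a 95% interval of -0.13 to 0.032 (edgeR, adjusted p = 0.379). Its sign turned under library totals, to 0.016.

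The remaining hnRNP genes overlapped between the groups. HNRNPC (ENSG00000092199, chr14:21209136-21269494), which binds U-rich tracts and keeps cryptic exons out of mRNAs, was at 492, 483 and 416 CPM in sh-NC and at 452, 452 and 492 CPM in sh-LINC01977 libraries. Its log2 fold change was 0.0056 (edgeR, adjusted p = 0.970) and turned to -0.065 without the third sh-NC library and to -0.035 without the third sh-LINC01977 library. HNRNPD (ENSG00000138668, chr4:82352498-82374503), also called AUF1, binds AU-rich elements in mRNA tails, and it was at 228, 260 and 254 CPM in sh-NC and at 259, 268 and 257 CPM in sh-LINC01977 libraries. The first sh-NC library was the lowest of the 6, and the log2 fold change was 0.078 (edgeR, adjusted p = 0.402).

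HNRNPA2B1 (ENSG00000122566, chr7:26189927-26201529), a core hnRNP protein, had the highest level of the 10 genes. It was at 1238, 1098 and 1087 CPM in sh-NC and at 992, 1117 and 1010 CPM in sh-LINC01977 libraries. The second knockdown library lay between the control values, and the log2 fold change was -0.13 with a 95% interval of -0.30 to 0.028 (edgeR, adjusted p = 0.238). CBX3, a heterochromatin protein gene that overlaps it at the 5′ end on the opposite strand, held 13.3% as many counts. HNRNPH1 (ENSG00000169045, chr5:179614178-179634784), which binds G-rich runs, was at 196, 194 and 182 CPM in sh-NC and at 174, 197 and 181 CPM in sh-LINC01977 libraries. Its log2 fold change was -0.051 (edgeR, adjusted p = 0.611) and turned to 0.015 under library totals. For the 8 genes that did not pass the test, the 95% interval reached at most 0.17 to either side of the estimate on the log2 scale.

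**Figure D2:**
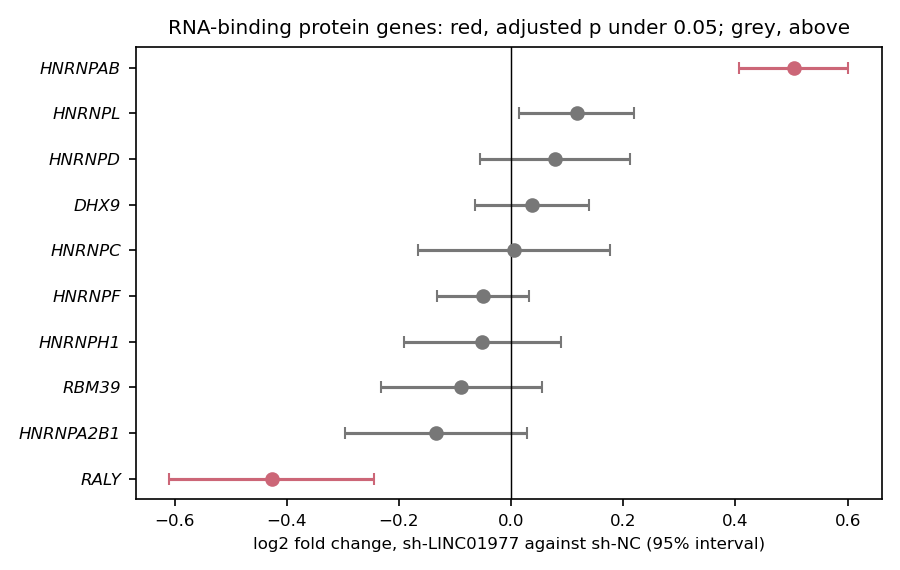
Log2 fold change of each of the 10 genes, sh-LINC01977 against sh-NC, with 95% intervals from edgeR (3 libraries in each group), where red marks an adjusted p under 0.05. The interval of HNRNPAB runs from 0.41 to 0.60 and that of RALY from -0.61 to -0.24, and the interval of RBM39 includes 0.

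Some of these genes also share much of their sequence with pseudogenes, to which reads could be assigned. There were 11 listed pseudogenes named after 5 of the 10 genes, 6 of them after HNRNPC, and their counts came to at most 0.984% of those of the parent gene.

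Ratios between related genes were then taken within each library, which removes the scaling of the library. The 6 pairs were chosen after the values of the genes had been seen, so they are a description without a test. The log2 ratio of RALY to HNRNPC counts was -0.79, -0.73 and -0.48 in sh-NC and -0.92, -1.04 and -1.36 in sh-LINC01977 libraries, a difference in means of -0.44. The log2 ratio of HNRNPAB to HNRNPD was -0.31, -0.53 and -0.48 in sh-NC and -0.061, -0.023 and 0.022 in sh-LINC01977 libraries, a difference of 0.42. In both, the knockdown libraries lay wholly to one side of the controls.

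HNRNPDL, the other close relative of HNRNPAB, gave a difference of 0.56 in the log2 ratio of HNRNPAB to HNRNPDL, from a mean of -0.71 ± 0.049 to -0.15 ± 0.067 (SD, n = 3). The log2 ratio of HNRNPH2 to HNRNPH1, whose proteins are nearly identical, moved from -0.84 ± 0.078 to -0.56 ± 0.089 (SD, n = 3), again without overlap. In contrast, the ratio of HNRNPF to HNRNPH1 differed by 0.0026 and that of RBM39 to U2AF2 by -0.040, and in both the groups overlapped. Reads that fit HNRNPH1 and HNRNPH2 alike could be assigned to either, so their separate values are less certain.

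**Figure D3:**
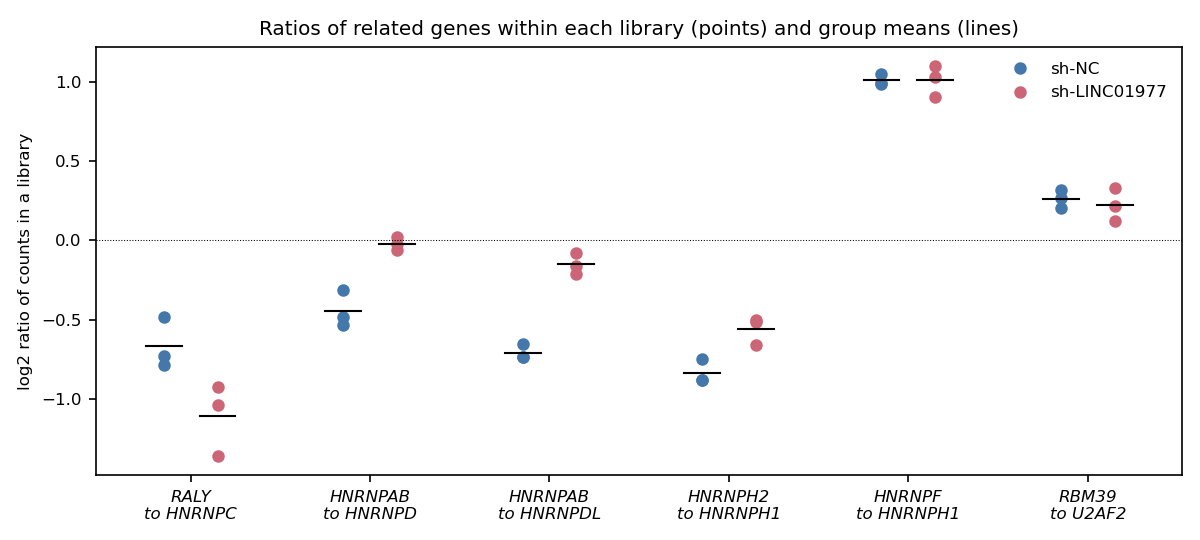
Log2 ratio of the counts of 2 related genes within each library, with sh-NC and sh-LINC01977 libraries as separate points (n = 3 each) and horizontal lines for the group means, for the 6 pairs. The points of the groups are apart for RALY to HNRNPC, HNRNPAB to HNRNPD, HNRNPAB to HNRNPDL and HNRNPH2 to HNRNPH1, and they overlap for HNRNPF to HNRNPH1 and RBM39 to U2AF2.

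Levels of different genes can be compared only per length, and they are given within each group because HNRNPAB and RALY differed between the groups. By mean FPKM (with the range over 3 libraries), the order in sh-NC was HNRNPA2B1 with 120.1 (115 to 129), HNRNPF with 93.5 (92.6 to 94.2), HNRNPAB with 67.3 (66.8 to 67.8), DHX9 with 52.7 (51.2 to 53.7) and HNRNPC with 50.3 (45.5 to 52.8). HNRNPL followed with 36.2 (34.8 to 37.6), RALY with 30.8 (29.8 to 31.6), HNRNPD with 28.2 (25.6 to 29.7), RBM39 with 21.4 (20.1 to 22.7) and HNRNPH1 with 15.9 (15.3 to 16.3). Of the neighbours in this order, DHX9 and HNRNPC overlapped and thus did not differ beyond their spread.

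In sh-LINC01977 libraries the order changed in 2 places. HNRNPAB, with 99.7 FPKM (96.1 to 102.5), was above HNRNPF with 94.5 (92.9 to 95.8), and HNRNPD, with 31.1 (30.8 to 31.4), was above RALY with 23.9 (21.5 to 26.4). In both groups and for both pairs the ranges of the genes were apart. RBM39 had 21.0 FPKM (19.8 to 21.8) and ranked 9 in both groups, and its range overlapped that of RALY in sh-LINC01977 libraries. DHX9 and HNRNPC overlapped again.

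That order depends on the length by which counts were divided. The length implied by count and FPKM was within 5% of the summed length of all annotated exons of the gene in 94.4% of 13425 tested genes and in 9 of the 10 genes, the exception being HNRNPA2B1 (7538 nt implied, 9267 nt annotated). For RBM39 this length was 11936 nt, 4.22 times its longest coding transcript of 2831 nt. A ratio that large was reached by 1.25% of 11071 tested coding genes, whose median was 1.36. RBM39 has 45 annotated transcripts, of which 8 are coding, 15 are marked for NMD and 16 retain an intron, and 0.117% of tested coding genes have as many NMD transcripts.

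With FPKM rescaled to the length of the longest coding transcript, RBM39 was at 90.2 (84.9 to 95.6) in sh-NC and at 88.6 (83.5 to 91.9) in sh-LINC01977 libraries. Its rank among the 10 genes was then 4 in sh-NC and 5 in sh-LINC01977, and in both groups its range overlapped that of HNRNPC. HNRNPAB, on the same scale, was below RBM39 in sh-NC (79.7 to 80.9) and above it in sh-LINC01977 libraries (115 to 122). RALY ranked last in both groups, between 34.8 and 37.0 in sh-NC and between 25.1 and 30.8 in sh-LINC01977 libraries, and HNRNPA2B1 stayed first. HNRNPH1, with 50 annotated transcripts, 16 of them with a retained intron, went from rank 10 to rank 9 in both groups. Among the 10 genes, 6 have at least 1 NMD transcript and 8 at least 1 retained-intron transcript, against 44.1% and 58.7% of tested coding genes. The counts are per gene, so how much of the RNA came from coding, NMD or retained-intron transcripts cannot be read from them.

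**Figure D4:**
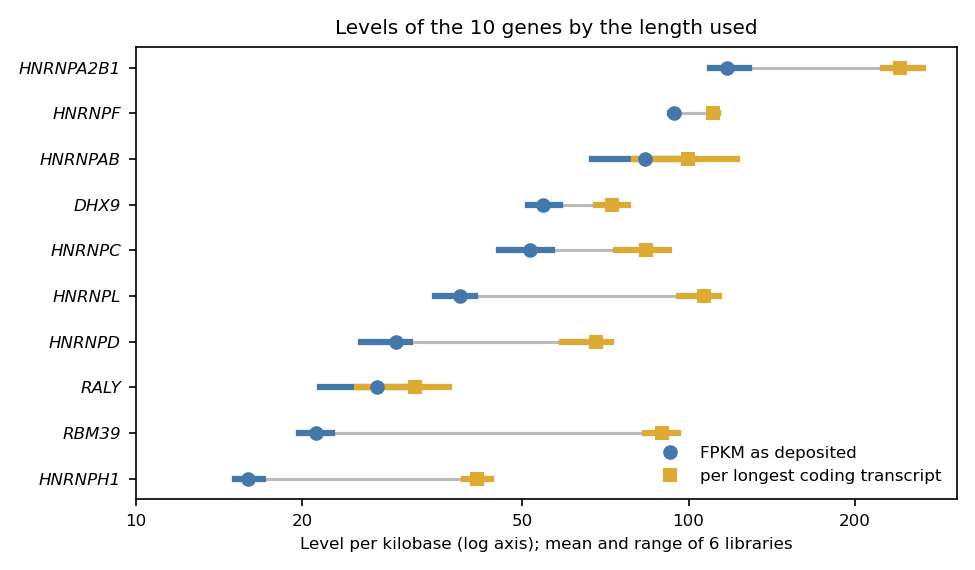
Mean level of each of the 10 genes over the 6 libraries on a log axis, as deposited FPKM (circles) and as FPKM rescaled to the longest coding transcript (squares), with thick bars for the range over both groups together and grey lines that join both values of a gene. RBM39 moves from a mean of 21.2 to 89.4 and RALY from 27.4 to 32.0, and the wide bars of HNRNPAB and RALY hold the difference between the groups, so the order of means in the plot is not the order within each group.

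Other genes of the same families were then counted whole, from lists by family and function. Of 25 further hnRNP genes 23 were tested, of which 2 rose and 1 fell, against 7.29% and 8.29% of all tested genes. The median log2 fold change of the 23 was -0.014. HNRNPH2 was at 106, 105 and 109 CPM in sh-NC and at 121, 125 and 128 CPM in sh-LINC01977 libraries (log2 fold change 0.23, edgeR adjusted p = 0.0163). HNRNPUL2, a relative of hnRNP U, rose by 0.19 on the log2 scale (edgeR, adjusted p = 0.0291), and PCBP2, which binds C-rich RNA, fell by 0.31 on the log2 scale (edgeR, adjusted p = 0.0103). Leaving out single libraries ended the calls of HNRNPH2 (adjusted p up to 0.0627) and HNRNPUL2 (up to 0.0875), and not that of PCBP2 (up to 0.0385). The abundant HNRNPA1 and HNRNPK, and HNRNPU and HNRNPDL, did not pass the test, with log2 fold changes of -0.038, 0.043, -0.0062 and -0.056, and those of HNRNPA1, HNRNPU and HNRNPDL turned positive under library totals.

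Relatives and partners of RBM39 at the 3′ splice site did not pass the test either. Of 11 such genes 10 were tested and 0 were called by edgeR, 0 had an unadjusted p under 0.05, and 0 were called by DESeq2 or limma. Of all tested genes 15.6% were called by edgeR and 30.2% had such a p. U2AF2, the large subunit that binds the polypyrimidine tract, had a log2 fold change of -0.050 (edgeR, adjusted p = 0.437), which turned to 0.016 under library totals. PUF60, a splicing factor related to it, had a log2 fold change of -0.068 (edgeR, adjusted p = 0.596) and of 0.0019 without the third sh-NC library. RBM23, the closest relative of RBM39, was below the filter with 57, 45 and 125 counts in sh-NC and 51, 92 and 80 counts in sh-LINC01977 libraries.

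RBM39 protein is destroyed when aryl sulfonamide drugs bind it to DCAF15, the substrate receptor of a ubiquitin ligase with DDB1, DDA1, RBX1 and CUL4. Of these 6 ligase genes, 1 rose and 1 fell, against 7.29% and 8.29% of all tested genes. DDB1, the adaptor, was at 439, 386 and 411 CPM in sh-NC and at 296, 314 and 301 CPM in sh-LINC01977 libraries (log2 fold change -0.44, edgeR adjusted p = 0.00302), with no overlap. CUL4B, a scaffold, was at 51.8, 52.3 and 55.6 CPM in sh-NC and at 69.3, 67.7 and 63.4 CPM in sh-LINC01977 libraries (0.33, edgeR adjusted p = 0.0131). DCAF15 had a log2 fold change of 0.31 with a wide 95% interval of -0.048 to 0.66 (edgeR, adjusted p = 0.220). No ligase activity or protein level was measured here.

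Of 14 SR protein genes, which bind exonic enhancers and often oppose hnRNP proteins, 13 were tested and 0 were called by edgeR. SRSF8 was the one with an unadjusted p under 0.05, against 30.2% of all tested genes, and DESeq2 called 1 and limma 0. Of 19 helicases related to DHX9, 18 were tested, of which DHX40 (log2 fold change 0.31, edgeR adjusted p = 0.0183) and DHX32 (0.26, adjusted p = 0.0271) rose and DHX33 fell (-0.26, adjusted p = 0.0184). These 3 calls among 18 stand beside 15.6% of all tested genes called. The 3 calls are close to the threshold, since leaving out single libraries ended each of them, and the median of the 18 was 0.086. Under library totals 6 of the 18 were called, DESeq2 called 4 and limma 5, and 9 had an unadjusted p under 0.05, against 30.2% of all tested genes. Of all tested genes, library totals called 11.2% higher and 5.87% lower and DESeq2 10.3% and 11.3%. In limma on log2(FPKM + 0.1) the shares were 9.43% and 5.42%. SRSF8 was named after its value was seen.

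mRNAs with AU-rich elements, which hnRNP D and related proteins bind, were counted as well. Of 18 listed 14 were tested, of which 4 rose and 0 fell, against 7.29% and 8.29% of all tested genes. EGR1, an immediate early transcription factor, was at 7.51, 6.40 and 6.05 CPM in sh-NC and at 16.6, 12.8 and 15.1 CPM in sh-LINC01977 libraries (log2 fold change 1.15, edgeR adjusted p = 0.00283). IER3, another immediate early gene, was at 79.3, 77.2 and 66.1 CPM in sh-NC and at 119, 113 and 112 CPM in sh-LINC01977 libraries (0.63, adjusted p = 0.00267). CCND1, cyclin D1, rose by 0.24 on the log2 scale (edgeR, adjusted p = 0.00991) and the chemokine CXCL8, named after its value was seen, by 0.74 (adjusted p = 0.0445). The call of CXCL8 was close to the threshold at a low level, with means of 4.23 CPM in sh-NC and 7.07 CPM in sh-LINC01977. It was not refitted with single libraries left out. The median over the 14 was 0.074. With 0 called lower by edgeR, 2 genes, CDKN1A and JUN, had an unadjusted p under 0.05 and a negative log2 fold change, and 7 of the 14 had such a p in either direction. Such a p was found in 30.2% of all tested genes. DESeq2 called 5 of the 14 and limma 4. MYC had the lowest log2 fold change of the list, -0.67 with a standard error of 1.02 (edgeR, adjusted p = 0.714). It was at 173, 177 and 170 CPM in sh-NC and at 159, 161 and 7.2 CPM in sh-LINC01977 libraries, so the third knockdown library stood apart from the other two. CDKN1A, JUN and MYC were named after their values were seen. Binding to these mRNAs and their decay were not measured.

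**Figure D5:**
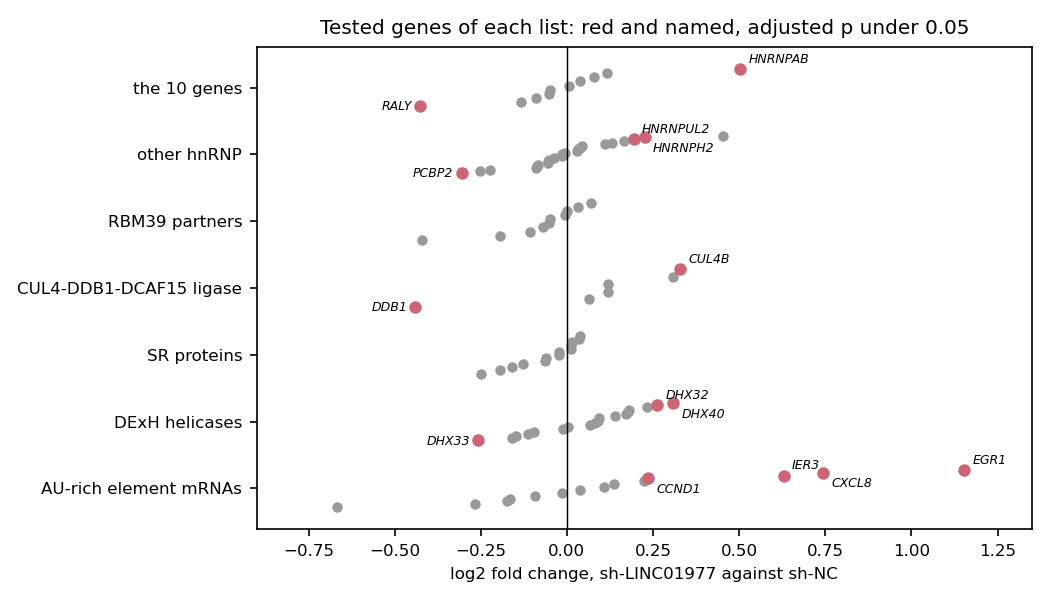
Log2 fold change, sh-LINC01977 against sh-NC, of the tested genes in each list, with 1 point for each gene and red, named points for an adjusted p under 0.05 from edgeR. The list of RBM39 partners and that of SR proteins hold no red point, and EGR1 lies farthest to the right at 1.15.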

How the data were processed

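RNA was extracted with TRIzol from HepG2 cells and sequenced by a service provider on an Illumina HiSeq. The submitters' processing notes name bcl2fastq 2.0, HISAT2, StringTie, DESeq2, limma and hg38, and give no roles. The authors deposited 1 raw count, a whole number, for each gene and library. Beside it the authors deposited an FPKM value, scaled to gene length and library total. Counts of 4 (8101 gene and library pairs) outnumbered counts of 3 (2780) and 5 (1758), so a count may not be an independent fragment.

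Groups came from the labels. Counts were tested with edgeR 4.0.16 in R 4.3.3 (quasi-likelihood test, robust, TMM scaling, Benjamini-Hochberg adjustment) over the 13452 genes whose mean FPKM was 0.5 or more. Limma 3.58.1 and DESeq2 1.42.0 were alternatives. The script was tested on simulated data. The members and lists were chosen with earlier results of these data known. Named genes were the 10 genes, up to 3 called genes in each direction of a list, and a few fixed by name, namely RBM23, U2AF2, PUF60, DCAF15, HNRNPA1, HNRNPK, HNRNPU, HNRNPH2 and HNRNPDL, with LINC01977 and NOTCH2 beside them. Cell type markers came from a list of their own. SRSF8, CXCL8, CDKN1A, JUN and MYC, and genes that overlap the 10 genes, were named outside this rule. For RBM39, the 5 genes with the most similar pattern among those at 10 FPKM or more in mean were added. For each of the 10 genes, the tested gene next in order of start on each side was added as well. Transcripts came from GENCODE 29, and oligonucleotide sequences from the study's supplement. A planned test of count over FPKM was not run, because that ratio was constant over libraries (range at most 0.0015 on the log2 scale in the 10 genes).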

Additional observations from a re-analysis of the deposited data

How the results depend on the processing

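The log2 fold changes of HNRNPAB (0.49 to 0.57, adjusted p at most 0.00598), RALY (-0.50 to -0.35, adjusted p at most 0.0429) and RBM39 (-0.13 to -0.024, adjusted p at least 0.279) kept their direction and their side of the threshold in all 16 alternatives, of which edgeR without robust was added after seeing the data. The number of the 10 genes called higher was 2 under library totals, 2 in limma on log2(FPKM + 0.1) and 2 in limma on log2(FPKM + 1), where HNRNPL was added. Of all tested genes 11.2%, 9.43% and 9.55% were higher and 5.87%, 5.42% and 5.46% lower in these 3. Without one library at a time it was 1 throughout, as was the number called lower. With 1 library left out, the share of all tested genes called was smallest without the second sh-LINC01977 library (4.51% higher, 5.16% lower), and without a filter on low values it was 3.45% higher and 3.97% lower.

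Small differences changed sign. Under library totals, limma on log2(FPKM + 0.1) and limma on log2(FPKM + 1), in that order, the log2 fold change was 0.028, 0.026 and 0.026 for HNRNPA1, 0.010, 0.0085 and 0.0083 for HNRNPDL, 0.016, 0.014 and 0.014 for HNRNPF, 0.015, 0.012 and 0.011 for HNRNPH1, 0.059, 0.057 and 0.054 for HNRNPU, and 0.016, 0.014 and 0.014 for U2AF2. Without a filter HNRNPC was at -0.0067, and with a mean FPKM of at least 1 HNRNPU was at 0.0014. With 1 library left out, HNRNPC ranged from -0.065 to 0.051, HNRNPU from -0.045 to 0.025 and PUF60 from -0.12 to 0.0019. Library totals and FPKM leave out the TMM factors. These were 0.966, 0.980 and 0.987 in sh-NC and 1.02, 1.01 and 1.04 in sh-LINC01977 libraries. The cause of the sign changes under the other settings was not tested. Calls were lost in 8 of 16 alternatives for DHX32, 7 for DHX33, 5 for DHX40, 4 for HNRNPH2 and 6 for HNRNPUL2, with the direction kept.

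The groups share replicate numbers, and deviations of same-numbered libraries correlated at -0.034, 0.0051 and 0.061. Those of differently numbered libraries correlated between -0.054 and 0.052. Weakly paired libraries could give such values too, so whether the numbers mark pairs is not known. With the replicate number as a block in edgeR, HNRNPAB was at 0.50 (adjusted p = 0.00598), RALY at -0.43 (adjusted p = 0.0333) and RBM39 at -0.090 (adjusted p = 0.422). In that fit 1 of the 10 genes was called in each direction (5.58% of all tested genes higher, 6.58% lower). Of the further genes followed through the alternatives, DHX32 (adjusted p = 0.0621) and DHX40 (adjusted p = 0.0537) lost their calls. CXCL8, GLUL, LINC00641, ANTXR2 and the cell type markers were not followed through them. The alternatives planned for the ratio of count to FPKM were not run. With 3 libraries a group, no exact two-sided permutation test of 1 gene can go below 0.1.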

Other observations

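The tested gene next in order of start on each side of the 10 genes was also read. Such a neighbour can lie far away, as ANTXR2 (chr4:79901149-80125454) does from HNRNPD (chr4:82352498-82374503). It can also lie within the gene, as AC008982.2 (chr19:38844729-38845499) does in HNRNPL (chr19:38836388-38852347). Of these 20 neighbours 2 were higher and 1 was lower in sh-LINC01977 libraries, against 7.29% and 8.29% of all tested genes. The count is thus near the background. GLUL, glutamine synthetase, which lies on the lower-coordinate side of DHX9 on chromosome 1, had a log2 fold change of -0.61 with a standard error of 0.053 (edgeR, adjusted p = 0.000886). The noncoding gene LINC00641 beside HNRNPC (0.69, edgeR adjusted p = 0.0241) and ANTXR2, an anthrax toxin receptor gene on the lower-coordinate side of HNRNPD (1.20, edgeR adjusted p = 0.00177), were higher at mean levels of 0.754 and 1.07 FPKM. The neighbours of RALY and HNRNPAB did not pass the test.

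Among 3451 tested genes whose mean was 10 FPKM or more, the pattern of log2 CPM over the 6 libraries was most like that of RBM39 in MRPL32, a protein of the mitochondrial ribosome (Pearson's r = 0.977), YWHAE, a 14-3-3 protein (0.975), AP3S1 (0.959), TMEM126A (0.953) and DDX3Y (0.947). These are descriptions over 6 points that share libraries and scaling, chosen as the highest of many. Among the other 9 genes r with RBM39 ran from -0.75 for HNRNPC to 0.75 for RALY.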
